A study of Mus musculus with 10 samples.

Results

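The genes described here make, fold, inspect and ship the proteins that enter the secretory pathway. They are 50 mouse genes listed by function: 16 chaperones and folding enzymes of the endoplasmic reticulum (ER), 7 genes of ER-associated degradation, 16 genes of translocation (with signal peptide cleavage and N-glycosylation), 8 genes of the COPII vesicle coat, and 3 KDEL receptors. A probe set counted for a member when its only gene symbol was that member, and where a gene had several, the brightest on average stood for it. On this rule 48 members were measured, of 12393 genes in all, and Sec24a and Sec61g were not among the genes tested. The list was drawn up by function, though with earlier results of these data known.

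Proteins bound for secretion or for membranes are threaded into the ER through the Sec61 channel, lose their signal peptide, receive N-glycans and are folded by chaperones such as Hspa5 (BiP) and by protein disulfide isomerases. Those that fail are drawn back out and degraded, and those that pass leave in COPII-coated vesicles, while KDEL receptors return escaped chaperones from the Golgi. Goblet, Paneth and enteroendocrine cells of the gut secrete mucins, antimicrobial proteins and hormones through this route, and enterocytes use it for brush border enzymes and for chylomicrons, the fat-carrying particles too large for an ordinary transport vesicle.

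Total RNA of intestinal epithelial cells of C57BL/6 mice was hybridised to Affymetrix 430A 2.0 arrays, 2 arrays to each of 5 groups. ISC are Lgr5-positive stem cells, sorted by flow cytometry for the green fluorescent protein of Lgr5-eGFP-Cre mice. Both groups of secretory progenitors are whole preparations of crypt cells: Rbpj Sec-Pro come from mice with Rbpj, the DNA-binding partner of Notch, deleted, and DBZ Sec-Pro from mice given the Notch inhibitor Dibenzazepine. Enterocyte progenitors (Ent-Pro, crypt) and mature enterocytes (ENT, villus) come from Atoh1-/- mice, described in the labels as without secretory cells, so a higher level of a secretory cell gene in Sec-Pro than in these groups is partly set by the design. The age of the mice, the Cre line behind either deletion and whether the arrays of a group are separate animals are not given in the labels, so the p-values reflect the scatter of these samples alone and that scatter may be technical.

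The arrays followed their labels in the targeted genes. Atoh1 read 7.68 and 7.80 for ISC, 5.75 and 5.78 for Ent-Pro, 4.97 and 5.18 for ENT, 10.40 and 10.78 for Rbpj Sec-Pro, and 11.80 and 11.85 for DBZ Sec-Pro. Rbpj read 6.74 and 6.62 in Rbpj Sec-Pro against 8.26 and 8.31 in DBZ Sec-Pro. The mean of 5 goblet markers lay between 13.65 and 14.01 on the Sec-Pro arrays, at 11.88 and 11.98 in ISC, at 6.21 and 6.19 in Ent-Pro and at 6.50 and 6.73 in the villus enterocytes. Not every secretory marker was low in the Atoh1-/- arrays: the Paneth marker Lyz1 read 10.31 and 11.15 in Ent-Pro and 8.22 and 11.10 in ENT, and the enteroendocrine marker Chgb 9.15 and 8.98 and 5.87 and 7.03. The mean of 4 Paneth markers was 7.17 on ENT replicate 1 and 9.39 on replicate 2, and the part of such RNA in the members' levels was not tested. The mean of 4 enterocyte markers was as high on the Sec-Pro arrays (13.46 to 14.42) as in Ent-Pro (13.89 and 13.65), against 11.56 and 11.54 in ISC, so enterocyte markers did not set the Sec-Pro preparations apart from Ent-Pro. All levels below are log2 values, differences are between group means on that scale with their standard errors, and Sec-Pro without a prefix is the mean of the Rbpj and DBZ group means. A member was called higher or lower past an adjusted p (limma, Benjamini-Hochberg over all 12393 genes) of 0.05. In bulk RNA, fewer cells of a type and less RNA per cell cannot be told apart.

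RefSeq promoters (250 bases before to 50 after the gene's start, build GRCm38.p6) were at hand for 42 of the 50 members, and 3 elements through which ER stress factors are known to act were searched on both strands. The ER stress element ERSE, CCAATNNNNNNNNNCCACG, was present in 9 members, or 21.4%, against 0.119% of all 32851 promoters. It stood in 7 of 14 chaperones (Calr, Canx, Creld2, Dnajc3, Hsp90b1, Hspa5 and Pdia6) and in 2 of 6 degradation genes (Derl3 and Syvn1), and in 0 of 12 translocation genes, 0 of 8 COPII genes and 0 of 2 KDEL receptors. ERSE-II, which is ATTGG, any base and then CCACG, was in Dnajb11 and Herpud1, 4.76% of members against 0.0365% of promoters. The core of the unfolded protein response element (UPRE), TGACGTG, was in Hspa5, Sec23a, Sec24d and Kdelr3, 9.52% of members against 2.01% of promoters. The shares of members are per gene, and the 42 genes have 46 promoters, while the shares of all promoters are per promoter. No match shared bases with another, and a match describes the letters only, not binding. The elements were picked because they are known from ER stress genes of this kind. The higher shares in members are therefore a description and not a test. The stretches printed are those of 3 chaperones, the degradation gene Herpud1, a KDEL receptor and a COPII gene, at least 1 for each element, ending before the gene's start. Capitals mark the element.
Hspa5, chr2:34771903-34772073, + strand: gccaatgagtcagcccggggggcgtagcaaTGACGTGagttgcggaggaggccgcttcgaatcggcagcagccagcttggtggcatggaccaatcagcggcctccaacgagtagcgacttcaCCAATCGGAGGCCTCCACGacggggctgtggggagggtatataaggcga
Pdia6, chr12:17266461-17266539, + strand: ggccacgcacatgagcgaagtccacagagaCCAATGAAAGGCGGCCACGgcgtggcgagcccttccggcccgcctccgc
Creld2, chr15:88819490-88819568, + strand: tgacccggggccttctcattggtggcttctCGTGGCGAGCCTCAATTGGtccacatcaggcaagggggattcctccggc
Herpud1, chr8:94386347-94386417, + strand: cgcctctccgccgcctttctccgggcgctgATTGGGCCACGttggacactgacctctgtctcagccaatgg
Kdelr3, chr15:79516349-79516407, + strand: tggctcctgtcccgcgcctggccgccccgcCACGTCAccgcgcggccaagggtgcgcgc
Sec24d, chr3:123267440-123267495, + strand: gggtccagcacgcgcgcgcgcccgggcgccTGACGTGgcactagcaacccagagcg
In Hspa5 the capitals are, from the left, a UPRE core at -157 to -151 and an ERSE at -65 to -47, where 0 is the gene's first base. Pdia6 has its ERSE at -98 to -80, and Creld2 has one on the opposite strand at -126 to -108. The ERSE-II of Herpud1 lies at -52 to -42. The UPRE core lies at -26 to -20 in Sec24d and, on the opposite strand, at -29 to -23 in Kdelr3.

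**Figure D1:**
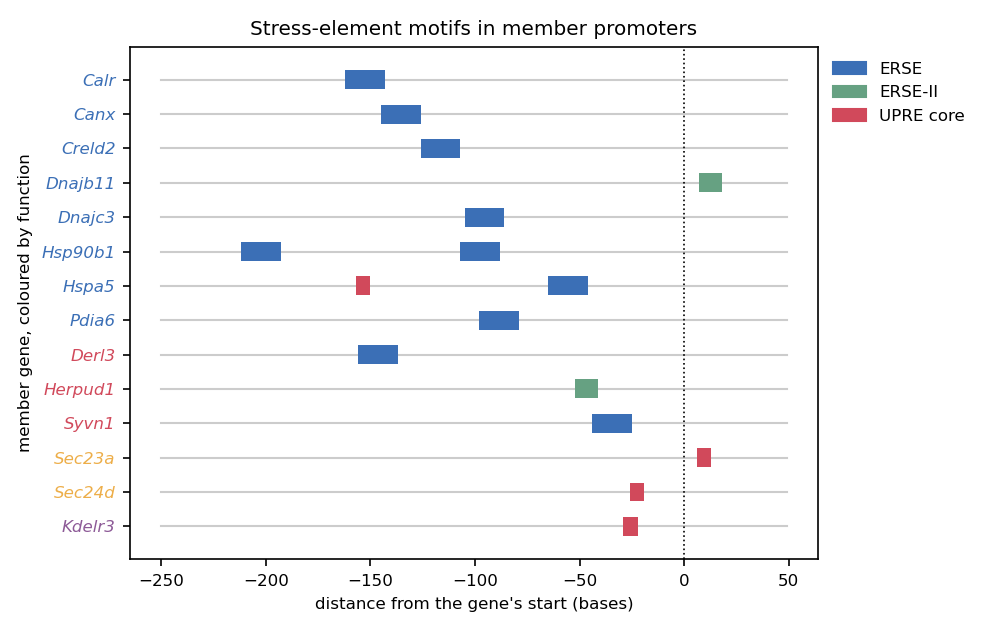
Position of each ERSE, ERSE-II and UPRE core match (coloured blocks) in the 14 member promoters that hold at least 1, in bases from the gene's start, with gene names coloured by function. The ERSE matches are in chaperones and degradation genes, and the UPRE core is in Hspa5, 2 COPII coat genes and Kdelr3.

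By the median, the members were lowest in stem cells and highest in secretory progenitors, but their functions parted on the villus. Against Ent-Pro, 30 of the 48 measured members were higher in Sec-Pro (9.27% of all genes were) and 0 were lower (14.7% of all genes; limma, also 0 at an unadjusted p below 0.05), with a median difference of 0.50 against -0.09 over all genes. Against ISC, 41 were higher (18% of all genes) and 0 lower (27.2% of all genes; also 0 unadjusted), with a median of 1.16 against -0.11. From ISC to Ent-Pro, 26 rose (12.1% of all genes) and 1 fell (13.5%), with a median of 0.58 against -0.02. These comparisons share the Ent-Pro or the ISC arrays and are not separate evidence of one another. ISC were sorted from Lgr5-eGFP-Cre mice, whereas Sec-Pro were whole crypt preparations and Ent-Pro came from Atoh1-/- mice. In every comparison with ISC, cell type therefore cannot be told apart from sorting, genotype or treatment.

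Between crypt and villus the set split. In ENT against Ent-Pro, 14 members rose (18.5% of all genes) and 15 fell (20.2%), with a median of -0.25 against 0.02. The falls were in chaperones (9 of 16, with 2 higher) and translocation genes (6 of 15, with 0 higher, also 0 at an unadjusted p). The rises were in degradation (4 of 7), the COPII coat (5 of 7) and the KDEL receptors (3 of 3), where 0 were called lower (1, a COPII gene, at an unadjusted p). Directly against ENT, Sec-Pro had 29 members higher (20% of all genes) and 7 lower (25.6%). The 29 comprised 13 of 16 chaperones, 14 of 15 translocation genes, Sar1a and Kdelr3, and the 7 comprised 5 COPII genes, Sel1l and Kdelr1. Of these calls 34 stayed with DBZ Sec-Pro alone and 26 with Rbpj Sec-Pro alone. In Rbpj Sec-Pro, Sec13 (-0.19, adjusted p = 0.34) and Sec23a (-0.42, adjusted p = 0.20) did not pass (limma), and Sar1b gave 0.00. Ssr2, Tram1, Rpn2, Sec63, Calr, Hyou1 and Kdelr3 did not pass there either (adjusted p from 0.074 to 0.51).

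**Figure D2:**
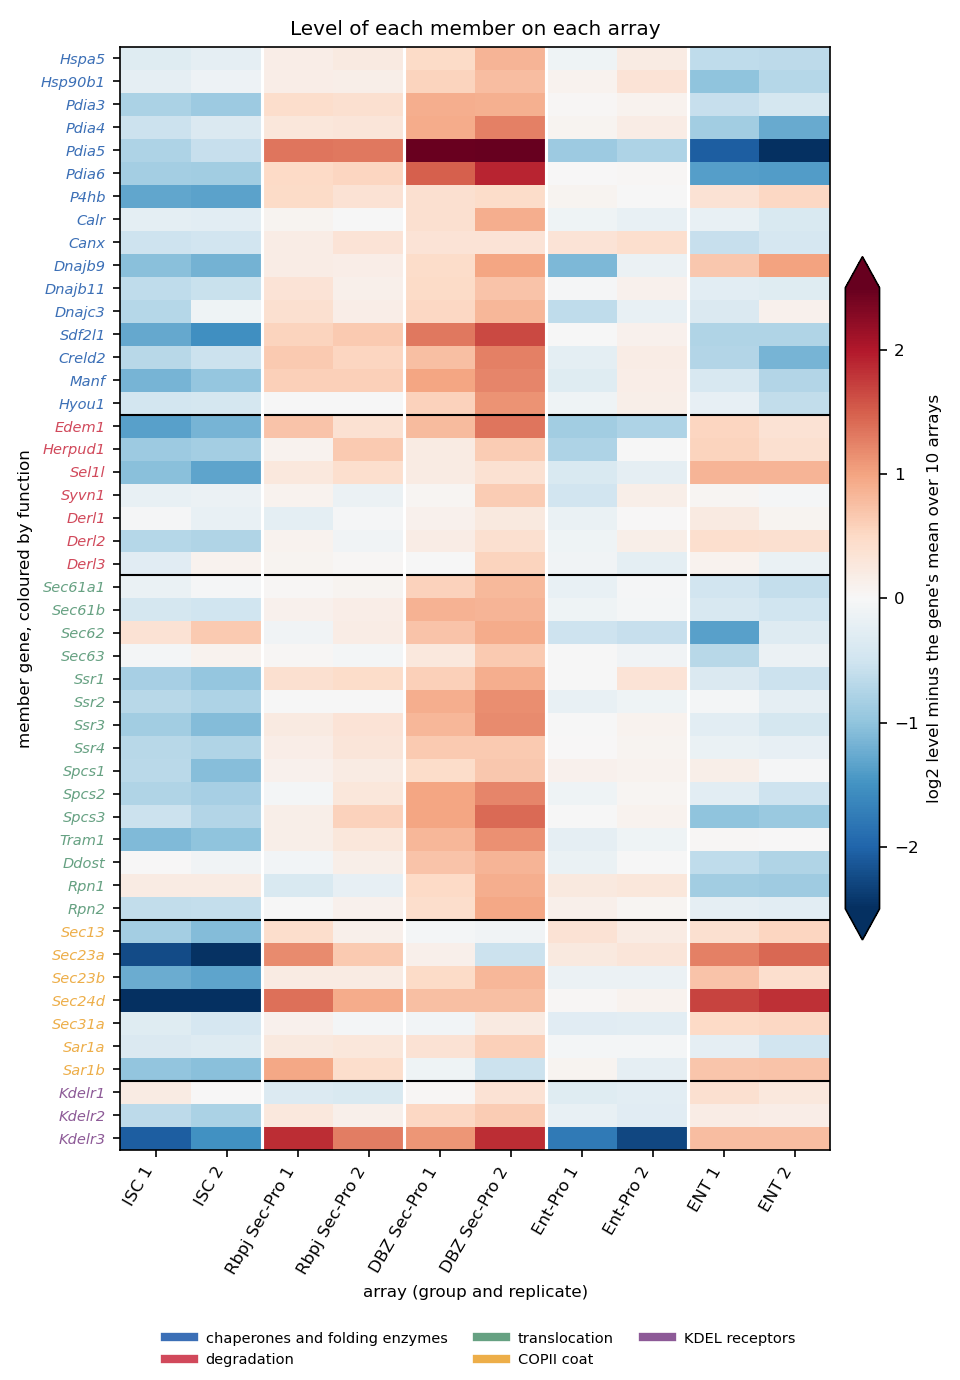
Level of each of the 48 measured members (rows, coloured by function) on each of the 10 arrays (columns), as the log2 level minus the gene's own mean over all arrays. Most chaperones and translocation genes are reddest on the DBZ Sec-Pro arrays and blue in ENT (P4hb, Dnajb9 and Tram1 lie above their own means on both ENT arrays, and Dnajc3 and Spcs1 on 1), while most COPII coat genes are red in ENT and blue in ISC.

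The per-array medians show the COPII rise from Ent-Pro to ENT but no fall of the chaperones. The median of the 16 chaperones was 10.33 and 10.46 for ISC, 10.81 and 11.04 for Ent-Pro, 10.82 and 11.02 for ENT, 11.56 and 11.48 for Rbpj Sec-Pro, and 12.32 and 12.47 for DBZ Sec-Pro. That of the 7 COPII genes was 9.50 and 9.54 for ISC, 10.81 and 10.82 for Ent-Pro, 11.68 and 11.54 for ENT, 11.44 and 11.17 for Rbpj Sec-Pro, and 10.96 and 10.91 for DBZ Sec-Pro. The DBZ Sec-Pro mean was the highest of the 5 groups for 35 members, among them all 15 translocation genes and 13 of 16 chaperones. ENT was highest for 10 members, 4 of them COPII genes, Rbpj Sec-Pro for 2 and Ent-Pro for 1, Canx. ISC was lowest for 28 members and ENT for 15. The share of all genes with their highest or lowest mean in each group was not counted, so these counts have none beside them.

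Both Sec-Pro preparations did not contribute alike to these counts. Against Ent-Pro, Rbpj Sec-Pro alone had 12 members higher and 1 lower (Rpn1, adjusted p = 0.028), whereas DBZ Sec-Pro alone had 34 higher. Fitting the 4 Sec-Pro arrays as 1 group gave 11. Without Ent-Pro replicate 1 the count was 8, and without Ent-Pro replicate 2 it was 15. In ENT against Ent-Pro, leaving out 1 array at a time gave 9 to 14 rises and 9 to 15 falls, with 9 rises without Ent-Pro replicate 1, ENT replicate 1 or ENT replicate 2, and 9 falls without Ent-Pro replicate 2. In Sec-Pro against ENT the lower count was 3 without either ENT array. The share of all genes called in each of these alternative fits was not counted, so these counts have no such share beside them. Goblet, Paneth and enteroendocrine markers were also higher in Sec-Pro than in Ent-Pro in all of 15 measured, tuft markers in 3 of 4 and other leukocyte markers in 4 of 7. Against ISC, Sec-Pro had 11 of those 15 secretory markers, all 4 enterocyte markers, 3 of 4 tuft markers and 4 of 7 other leukocyte markers higher, and 3 of 4 stem markers lower. Ent-Pro against ISC had all 4 enterocyte markers higher and 14 of the 15 secretory markers lower. The part of these cells in the members' levels was not tested.

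Of the 16 chaperones and folding enzymes, 12 were higher in Sec-Pro than in Ent-Pro and 8 rose from ISC to Ent-Pro, and the 4 that did not pass in the former were Hspa5, Hsp90b1, Canx and Hyou1. The disulfide isomerases did not move as a block. Pdia5, a little-studied member of the family, read 8.80 and 9.002 for ISC, 8.67 and 8.81 for Ent-Pro, 7.52 and 7.004 for ENT, 10.92 and 10.90 for Rbpj Sec-Pro, and 12.05 and 12.11 for DBZ Sec-Pro. Its Sec-Pro arrays lay above all others, and ENT below all others. It was 18.8-fold higher in Sec-Pro than in ENT (log2 4.23 ± 0.15, adjusted p = 6.1e-07) and 6.76-fold higher than in Ent-Pro (adjusted p = 9.1e-06), and it fell 2.78-fold from Ent-Pro to ENT (adjusted p = 0.00025). Pdia5 did not differ detectably between Ent-Pro and ISC (-0.16 ± 0.17, adjusted p = 0.57, 95% interval -0.56 to 0.23).

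Pdia6, a disulfide isomerase that associates with BiP, had a smaller range. It read 10.31 and 10.30 for ISC, 11.18 and 11.18 for Ent-Pro, 9.79 and 9.77 for ENT, 11.65 and 11.71 for Rbpj Sec-Pro, and 12.66 and 13.08 for DBZ Sec-Pro. The groups did not overlap, and Sec-Pro exceeded ENT 5.64-fold (adjusted p = 4e-06) and Ent-Pro 2.13-fold (adjusted p = 0.00069, lost at 0.085 with the 4 Sec-Pro arrays as 1 group). Its second probe set, which is dim (mean 5.21), ran the other way in ENT against Ent-Pro (0.30), in Ent-Pro against ISC (-0.23) and in DBZ against Rbpj Sec-Pro (-0.36). By that probe set Sec-Pro did not pass against ENT (adjusted p = 0.46, limma), Ent-Pro (0.21) or ISC (0.36).

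P4hb, the founding disulfide isomerase, which is also a subunit of collagen prolyl hydroxylase and of the microsomal triglyceride transfer protein, did not share the fall on the villus. P4hb read 11.99 and 11.95 for ISC, 13.36 and 13.28 for Ent-Pro, 13.64 and 13.81 for ENT, 13.76 and 13.64 for Rbpj Sec-Pro, and 13.68 and 13.74 for DBZ Sec-Pro. ISC stood alone at the bottom, and the ENT and Sec-Pro arrays overlapped. It rose from ISC to Ent-Pro (log2 1.35 ± 0.12, adjusted p = 0.00019) and again to ENT (0.40 ± 0.12, adjusted p = 0.023), a call lost without either Ent-Pro array or without ENT replicate 2 (adjusted p from 0.072 to 0.14). Sec-Pro and ENT did not differ detectably in it (-0.02 ± 0.10, adjusted p = 0.9, interval -0.25 to 0.21).

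The paralogs Pdia3 and Pdia4, like Pdia5 and Pdia6, were highest in DBZ Sec-Pro and fell from Ent-Pro to ENT. Pdia3, the isomerase that works with the lectin chaperones on glycoproteins, read 11.61 and 11.50 for ISC, 12.43 and 12.49 for Ent-Pro, 11.83 and 11.97 for ENT, 12.84 and 12.80 for Rbpj Sec-Pro, and 13.31 and 13.30 for DBZ Sec-Pro. It fell 1.48-fold from Ent-Pro to ENT (adjusted p = 0.0038) and was 2.25-fold higher in Sec-Pro than in ENT. Pdia4 read 9.62 and 9.79 for ISC, 10.24 and 10.34 for Ent-Pro, 9.29 and 8.90 for ENT, 10.45 and 10.47 for Rbpj Sec-Pro, and 11.10 and 11.42 for DBZ Sec-Pro. It was 3.39-fold higher in Sec-Pro than in ENT (adjusted p = 4.5e-05), and here too a second probe set near the background (mean 4.96) gave no such difference (-0.18). Against Ent-Pro, Pdia4 in Rbpj Sec-Pro alone did not pass (10.45 and 10.47 against 10.24 and 10.34, adjusted p = 0.47).

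The partners of BiP also parted. Sdf2l1, which keeps BiP clients from aggregating together with Dnajb11, read 8.71 and 8.45 for ISC, 9.98 and 10.10 for Ent-Pro, 9.23 and 9.22 for ENT, 10.55 and 10.63 for Rbpj Sec-Pro, and 11.31 and 11.64 for DBZ Sec-Pro. It was 5.46-fold higher in Sec-Pro than in ISC (adjusted p = 7.3e-06) and fell 1.75-fold from Ent-Pro to ENT (adjusted p = 0.0024). Dnajb9, a BiP co-chaperone that restrains the stress sensor Ern1, went the other way on the villus and read 9.21 and 9.07 for ISC, 9.13 and 10.09 for Ent-Pro, 10.93 and 11.24 for ENT, 10.43 and 10.42 for Rbpj Sec-Pro, and 10.70 and 11.24 for DBZ Sec-Pro. It was 2.77-fold higher in ENT than in Ent-Pro (adjusted p = 0.0039), although the Ent-Pro arrays themselves were almost a log2 unit apart. Its Sec-Pro and ENT arrays overlapped (log2 -0.39 ± 0.26, adjusted p = 0.24).

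BiP itself, Hspa5, read 12.96 and 13.03 for ISC, 13.16 and 13.47 for Ent-Pro, 12.64 and 12.61 for ENT, 13.43 and 13.48 for Rbpj Sec-Pro, and 13.73 and 14.12 for DBZ Sec-Pro. The Ent-Pro arrays overlapped with Sec-Pro, and the difference missed the threshold (0.38 ± 0.14, adjusted p = 0.078), but Hspa5 was 1.61-fold lower in ENT than in Ent-Pro (adjusted p = 0.0077, 0.073 without Ent-Pro replicate 2). Hsp90b1 (GRP94), its Hsp90 counterpart, was 2.11-fold lower in ENT than in Ent-Pro (adjusted p = 0.00058; 0.061 by its dimmer probe set), and Canx, a membrane-bound lectin chaperone, 1.85-fold lower (adjusted p = 0.00044). Creld2, a secreted stress-induced isomerase, fell 1.89-fold (adjusted p = 0.0094; 0.072 to 0.082 without Ent-Pro replicate 2 or ENT replicate 2). Calr, the soluble relative of Canx, gave -0.14 (adjusted p = 0.56), and Hyou1, Dnajb11, Manf and Dnajc3 did not pass either, with log2 differences from -0.51 to 0.28. All 16 chaperones were higher in Sec-Pro than in ISC, from 1.5-fold for Hsp90b1 to 6.03-fold for Pdia5.

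Set against the promoter elements, the 9 members with an ERSE had 5 falls and 0 rises from Ent-Pro to ENT and a median of -0.69. The 11 members with an ERSE or ERSE-II had 5 falls, 1 rise and a median of -0.32. As 7 of the 9 with an ERSE were chaperones, element and function cannot be told apart in these counts. The 4 members with a UPRE core had 3 rises (Kdelr3, Sec24d and Sec23a) and 1 fall, Hspa5, which holds both elements. The 26 measured members with a promoter and none of the elements had 9 rises and 8 falls and a median of -0.30. Over all genes 18.5% rose and 20.2% fell. These are counts of few genes, given as a description.

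**Figure D3:**
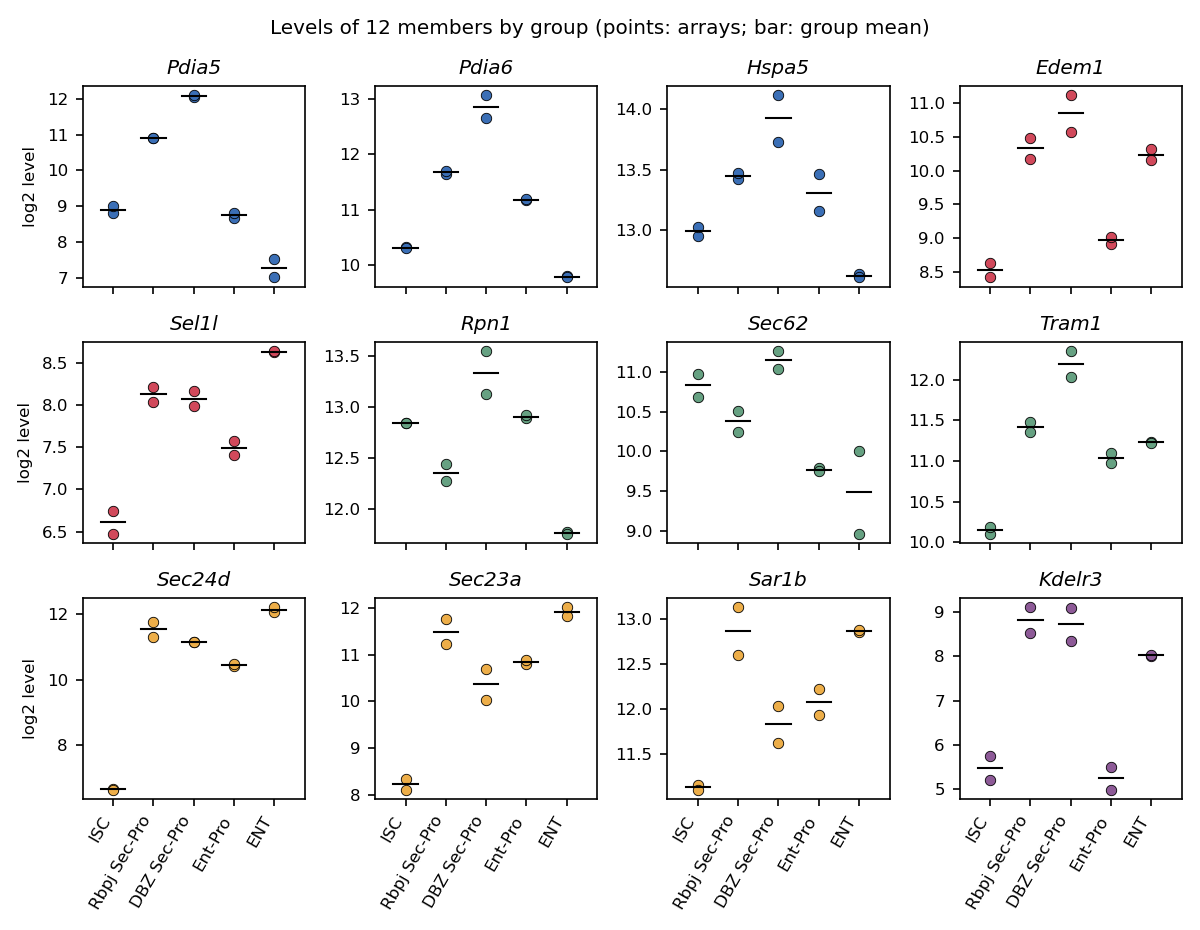
Log2 level of 12 members on each array (points) with the group mean (bar), in the 5 groups, coloured by function as in the other plots; each panel has its own vertical axis, which does not start at 0. Pdia5, Pdia6, Hspa5 and Rpn1 are lowest in ENT, while Sel1l, Sec24d and Sec23a are highest there, and Kdelr3 sits above 8 in Sec-Pro and ENT and below 6 in ISC and Ent-Pro.

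Of the 7 degradation genes, Edem1, Sel1l, Herpud1 and Derl2 were higher in ENT than in Ent-Pro, and the other 3 did not pass. Edem1, a lectin that hands misfolded glycoproteins over for degradation, read 8.42 and 8.62 for ISC, 8.92 and 9.02 for Ent-Pro, 10.32 and 10.15 for ENT, 10.49 and 10.17 for Rbpj Sec-Pro, and 10.58 and 11.12 for DBZ Sec-Pro. Sec-Pro and ENT lay above ISC and Ent-Pro with no overlap. Edem1 was 3.08-fold higher in Sec-Pro than in Ent-Pro (log2 1.62 ± 0.17, adjusted p = 0.00041) and 2.41-fold higher in ENT than in Ent-Pro (log2 1.27 ± 0.19, adjusted p = 0.00095); both share the Ent-Pro arrays. Sec-Pro and ENT did not differ detectably (0.35 ± 0.17, adjusted p = 0.12).

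Sel1l, the scaffold of the Syvn1 (Hrd1) ubiquitin ligase, was highest in ENT. It read 6.74 and 6.48 for ISC, 7.41 and 7.57 for Ent-Pro, 8.63 and 8.64 for ENT, 8.04 and 8.21 for Rbpj Sec-Pro, and 7.99 and 8.17 for DBZ Sec-Pro. Every ENT array lay above every Sec-Pro array, and every Sec-Pro array above Ent-Pro and ISC. The step from Ent-Pro to ENT was 2.21-fold (adjusted p = 0.00031), and Sec-Pro was 1.45-fold below ENT (adjusted p = 0.0068), a difference its dimmer probe set did not show (adjusted p = 0.92). The call of Sec-Pro against Ent-Pro (0.61 ± 0.12, adjusted p = 0.0093) was lost without Ent-Pro replicate 1 (adjusted p = 0.10).

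Herpud1, a stress-induced membrane protein of the same ligase complex, read 10.10 and 10.16 for ISC, 10.24 and 11.01 for Ent-Pro, 11.57 and 11.40 for ENT, 11.10 and 11.67 for Rbpj Sec-Pro, and 11.23 and 11.66 for DBZ Sec-Pro. Ent-Pro replicate 1 lay near ISC and replicate 2 close to the Sec-Pro arrays. It passed in ENT against Ent-Pro (0.87 ± 0.27, adjusted p = 0.034) and in Sec-Pro against Ent-Pro (0.79 ± 0.24, adjusted p = 0.042), and both calls were lost under several alternatives, including without Ent-Pro replicate 1 (adjusted p from 0.055 to 0.23 and from 0.057 to 0.35). The ligase Syvn1 and the Derlin channels Derl1 and Derl3 passed in none of the 6 comparisons, with differences from -0.13 to 0.38. Derl2 was higher in Ent-Pro than in ISC (0.75 ± 0.14, adjusted p = 0.0043). Its rise to ENT (0.40 ± 0.14, adjusted p = 0.046) turned to -0.88 by another probe set and to -0.24 by the mean of its probe sets. Of 15 further degradation genes measured, 4 rose and 1 fell from Ent-Pro to ENT (18.5% and 20.2% of all genes). The larger were Ube2j1, a ubiquitin-conjugating enzyme (0.67), and Os9, a lectin of the ligase complex (0.62), and the fall was in Vcp, the extraction ATPase (-0.42).

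In the mean of both Sec-Pro groups, 10 of 15 translocation genes were higher than in Ent-Pro and 12 higher than in ISC, and 0 were lower in either (limma, also 0 at an unadjusted p). In Rbpj Sec-Pro alone, no translocation gene passed as higher than in Ent-Pro (limma), and Tram1 came nearest (0.38, adjusted p = 0.071). Rpn1 was lower there than in Ent-Pro (-0.55, adjusted p = 0.028) and in ISC (-0.49, adjusted p = 0.025). Spcs3, the glycosylated subunit of the signal peptidase, read 9.78 and 9.59 for ISC, 10.30 and 10.40 for Ent-Pro, 9.31 and 9.40 for ENT, 10.46 and 10.90 for Rbpj Sec-Pro, and 11.30 and 11.73 for DBZ Sec-Pro. Its Sec-Pro arrays exceeded those of every other group, and it was 3.35-fold higher in Sec-Pro than in ENT (adjusted p = 9e-05) and fell 1.99-fold from Ent-Pro to ENT (adjusted p = 0.0029).

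Tram1, a membrane protein beside the Sec61 channel, read 10.11 and 10.19 for ISC, 10.98 and 11.11 for Ent-Pro, 11.23 and 11.23 for ENT, 11.36 and 11.48 for Rbpj Sec-Pro, and 12.03 and 12.35 for DBZ Sec-Pro. ISC lay lowest and DBZ Sec-Pro highest, with Ent-Pro and ENT close together (0.19 ± 0.14, adjusted p = 0.33). Ssr3, a subunit of the translocon-associated protein complex, read 10.50 and 10.29 for ISC, 11.37 and 11.45 for Ent-Pro, 11.10 and 10.93 for ENT, 11.59 and 11.72 for Rbpj Sec-Pro, and 12.19 and 12.56 for DBZ Sec-Pro. It was 3.07-fold higher in Sec-Pro than in ISC (adjusted p = 4.2e-05), and Tram1 3.15-fold (adjusted p = 2.2e-05). The other Ssr subunits were also higher than in ISC, from 2.25-fold for Ssr4 to 2.81-fold for Ssr1, and so were Spcs1 (2.34-fold) and Spcs2 (2.63-fold).

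Subunits of the oligosaccharyltransferase, which attaches N-glycans, did not keep step. Rpn1 read 12.85 and 12.84 for ISC, 12.89 and 12.92 for Ent-Pro, 11.77 and 11.75 for ENT, 12.27 and 12.44 for Rbpj Sec-Pro, and 13.13 and 13.55 for DBZ Sec-Pro. DBZ Sec-Pro lay highest, ENT lowest and Rbpj Sec-Pro below both ISC and Ent-Pro, so that the mean of both Sec-Pro groups did not differ detectably from either (0.00 and -0.06). Rpn1 fell 2.21-fold from Ent-Pro to ENT (adjusted p = 0.00042) and Ddost 1.51-fold (adjusted p = 0.0061; 0.057 without Ent-Pro replicate 2), while Rpn2 gave -0.33 (adjusted p = 0.16). Of 17 further genes of translocation and glycosylation measured, 0 rose and 3 fell from Ent-Pro to ENT (18.5% and 20.2% of all genes), led by Sec61a2 (-0.88) and Krtcap2 (-0.67).

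In the channel itself, Sec61b fell from Ent-Pro to ENT (-0.37 ± 0.11, adjusted p = 0.025) and Sec61a1 likewise (-0.43 ± 0.13, adjusted p = 0.027). The call of each was lost without any one of the Ent-Pro or ENT arrays (adjusted p up to 0.14 for Sec61b and 0.90 for Sec61a1 over all alternatives), and 3 other probe sets of Sec61a1 gave 0.02, 0.53 and 0.96. Sec62, which helps post-translational translocation and the recovery of the ER after stress, went against its group and read 10.68 and 10.98 for ISC, 9.80 and 9.75 for Ent-Pro, 8.97 and 10.01 for ENT, 10.24 and 10.51 for Rbpj Sec-Pro, and 11.04 and 11.26 for DBZ Sec-Pro. It was the one member that fell from ISC to Ent-Pro (-1.06 ± 0.29, adjusted p = 0.027). The call was lost without any one of the ISC or Ent-Pro arrays, and 2 other probe sets gave 0.06 and 0.62. Its partner Sec63 did not pass there (-0.07) and passed in Sec-Pro against ENT alone of the 6 comparisons (0.65 ± 0.17, adjusted p = 0.013; 0.13 without ENT replicate 1), where another probe set gave -0.22.

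The COPII coat held the largest difference of any member from stem cells. All 7 measured were higher in Sec-Pro than in ISC, 5 in Ent-Pro than in ISC, and 3 (Sec24d, Sec23b and Sar1a) in Sec-Pro than in Ent-Pro. Sec24d, which selects cargo for the vesicle, read 6.67 and 6.65 for ISC, 10.40 and 10.48 for Ent-Pro, 12.06 and 12.20 for ENT, 11.76 and 11.31 for Rbpj Sec-Pro, and 11.14 and 11.14 for DBZ Sec-Pro. Every other group lay far above ISC, and ENT lay highest. It was 25.6-fold higher in Sec-Pro than in ISC, 13.7-fold higher in Ent-Pro than in ISC (log2 3.78 ± 0.15, adjusted p = 4.3e-06) and 3.23-fold higher again in ENT than in Ent-Pro (log2 1.69 ± 0.15, adjusted p = 8.3e-05). Sec-Pro lay between them, above Ent-Pro (0.90 ± 0.13, adjusted p = 0.0024) and below ENT (-0.79 ± 0.13, adjusted p = 0.0014).

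Sec23a, the partner of Sec24 in the inner coat, also rose at both steps. It read 8.35 and 8.11 for ISC, 10.81 and 10.88 for Ent-Pro, 11.83 and 12.02 for ENT, 11.76 and 11.24 for Rbpj Sec-Pro, and 10.71 and 10.04 for DBZ Sec-Pro. It was 6.14-fold higher in Ent-Pro than in ISC (adjusted p = 0.00025) and 2.1-fold higher in ENT than in Ent-Pro (adjusted p = 0.0067), and Rbpj and DBZ Sec-Pro lay on either side of Ent-Pro. Its paralog Sec23b read 9.73 and 9.66 for ISC, 10.82 and 10.82 for Ent-Pro, 11.68 and 11.39 for ENT, 11.18 and 11.17 for Rbpj Sec-Pro, and 11.44 and 11.81 for DBZ Sec-Pro. Sec23b had a narrower range, was 1.64-fold higher in ENT than in Ent-Pro (adjusted p = 0.0056), and was highest in DBZ Sec-Pro, where Sec23a was lower than in Rbpj Sec-Pro.

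The Sar1 paralogs, the GTPases that start the coat, differed. Sar1b, whose loss in humans blocks chylomicron export, read 11.16 and 11.11 for ISC, 12.22 and 11.93 for Ent-Pro, 12.85 and 12.87 for ENT, 13.12 and 12.60 for Rbpj Sec-Pro, and 12.04 and 11.62 for DBZ Sec-Pro. Rbpj Sec-Pro and ENT overlapped at the top. Sar1b was 1.72-fold higher in ENT than in Ent-Pro (adjusted p = 0.014; 0.056 to 0.11 without Ent-Pro replicate 2 or either ENT array), and Sec-Pro stood below ENT (-0.52 ± 0.18, adjusted p = 0.041), a call lost under several alternatives, among them without either ENT array (adjusted p from 0.051 to 0.28). Sar1a read 9.50 and 9.54 for ISC, 9.81 and 9.81 for Ent-Pro, 9.62 and 9.38 for ENT, 10.09 and 10.13 for Rbpj Sec-Pro, and 10.21 and 10.45 for DBZ Sec-Pro. It was the one COPII member higher in Sec-Pro than in ENT (0.72 ± 0.11, adjusted p = 0.0012), although another of its probe sets gave -0.001, and it did not pass in ENT against Ent-Pro (-0.31 ± 0.13, adjusted p = 0.095).

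In the outer coat, Sec31a was 1.72-fold higher in ENT than in Ent-Pro (adjusted p = 0.0017), and Sec13, which also serves the nuclear pore, rose 2.39-fold from ISC to Ent-Pro (adjusted p = 0.00071) and not detectably after (0.19 ± 0.15, adjusted p = 0.37). Of 30 further ER-to-Golgi transport genes measured, 14 rose and 3 fell from Ent-Pro to ENT (18.5% and 20.2% of all genes). The largest rises were in Mia2 (2.07 ± 0.23, adjusted p = 0.00021), an ER exit site protein for bulky cargo, and in Sec16b (1.91 ± 0.16, adjusted p = 6.1e-05), a scaffold of those sites. The largest falls were in Ergic1 (-1.38) and Tmed9 (-0.90), a cargo receptor. Enterocyte markers were higher in ENT than in Ent-Pro in all 4 measured, as were all 4 tuft markers and 4 of 7 other leukocyte markers. Of 4 stem markers 3 were lower, and their mean was 10.64 and 10.42 in Ent-Pro against 8.81 and 8.45 in ENT. The part of these cells in the members' levels, rises and falls alike, was not tested.

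**Figure D4:**
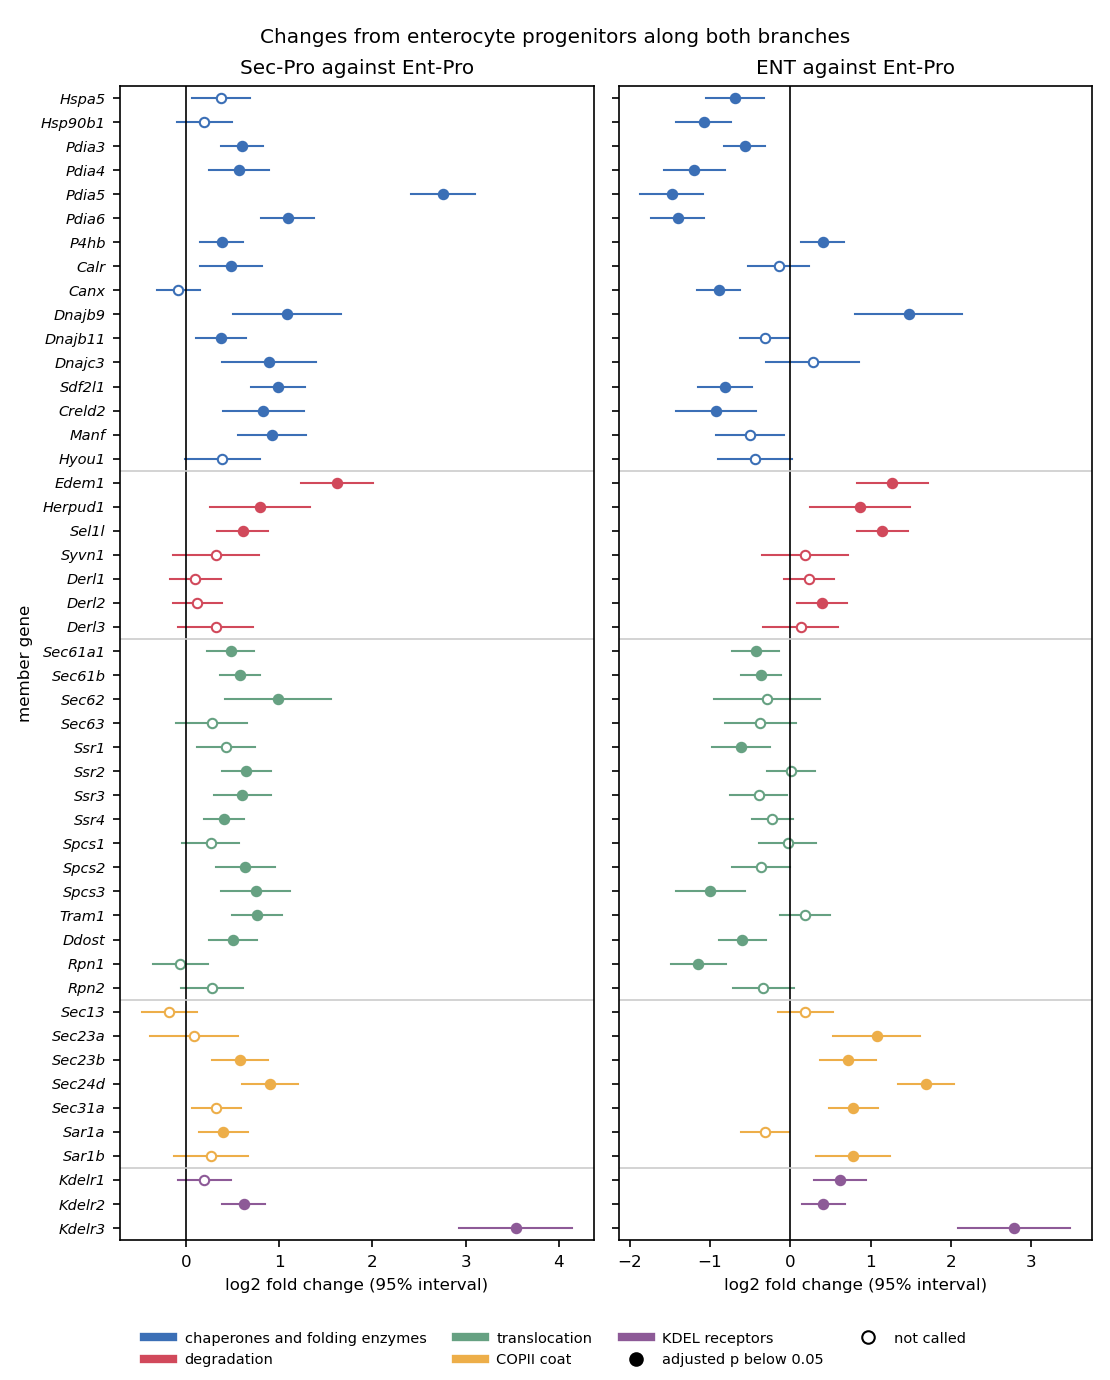
Log2 difference with its 95% interval for each of the 48 measured members, Sec-Pro against Ent-Pro (left) and ENT against Ent-Pro (right), filled where the adjusted p is below 0.05; both panels share the Ent-Pro arrays. On the left no filled point lies below 0, and on the right filled points of chaperones and translocation genes lie mostly below 0 and those of degradation, COPII and KDEL receptor genes above it.

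The 3 KDEL receptors had unlike patterns. Kdelr3 read 5.19 and 5.74 for ISC, 5.49 and 4.98 for Ent-Pro, 8.02 and 8.03 for ENT, 9.11 and 8.53 for Rbpj Sec-Pro, and 8.35 and 9.10 for DBZ Sec-Pro. The Sec-Pro and ENT arrays lay above 8 and the ISC and Ent-Pro arrays below 6, close to the line of 4.76 to 5.03 on those arrays below which a probe set was taken as near background. Kdelr3 was 11.6-fold higher in Sec-Pro than in Ent-Pro (log2 3.54 ± 0.27, adjusted p = 6.2e-05), the largest change of any member in that comparison, and 6.92-fold higher in ENT than in Ent-Pro (log2 2.79 ± 0.31, adjusted p = 0.00019). Sec-Pro exceeded ENT by 0.75 ± 0.27 (adjusted p = 0.047), a call that most alternatives ended (adjusted p from 0.051 to 0.16).

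Kdelr2 and Kdelr1 moved less. Kdelr2 read 12.03 and 11.89 for ISC, 12.49 and 12.40 for Ent-Pro, 12.87 and 12.84 for ENT, 12.95 and 12.80 for Rbpj Sec-Pro, and 13.20 and 13.31 for DBZ Sec-Pro. ISC was lowest, and Kdelr2 was 1.54-fold higher in Sec-Pro than in Ent-Pro (adjusted p = 0.0043; 0.055 without Ent-Pro replicate 2) and 1.33-fold higher in ENT than in Ent-Pro (adjusted p = 0.023; 0.072 to 0.14 without any one of these 4 arrays). Kdelr1 read 11.73 and 11.53 for ISC, 11.22 and 11.26 for Ent-Pro, 11.92 and 11.79 for ENT, 11.18 and 11.13 for Rbpj Sec-Pro, and 11.54 and 11.89 for DBZ Sec-Pro. Its ISC arrays were not low, and Rbpj Sec-Pro and Ent-Pro were lowest. Kdelr1 was 1.53-fold higher in ENT than in Ent-Pro (adjusted p = 0.0083; 0.051 to 0.054 without Ent-Pro replicate 1 or ENT replicate 1), and was lower in Sec-Pro than in ENT (-0.42 ± 0.12, adjusted p = 0.023), with DBZ Sec-Pro and ENT overlapping and the call lost without DBZ replicate 1 or either ENT array (adjusted p from 0.050 to 0.46 where lost).

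Genes that signal ER stress, and folding enzymes outside the list, were read beside the members. Of 16 stress signalling genes measured, 8 were higher in Sec-Pro than in Ent-Pro (9.27% of all genes) and 0 lower (14.7%; limma, 2 at an unadjusted p). The rises were led by Creb3l4 (4.40 ± 0.16, adjusted p = 7.4e-07), a membrane-bound transcription factor, and Ern2 (3.80 ± 0.23, adjusted p = 1.8e-05), the epithelial form of the sensor Ire1. From Ent-Pro to ENT 4 rose (18.5% of all genes) and 2 fell (20.2%): Creb3l2 (2.01) and Creb3l3 (1.85) led the rises, and Ern2 (-0.87) and Atf6b (-0.61) were the falls. Of 20 further folding enzymes, 12 were higher in Sec-Pro than in Ent-Pro (9.27% of all genes), led by Agr2, the disulfide isomerase of mucin-making cells (5.39 ± 0.37, adjusted p = 3.7e-05), and the prolyl isomerase Fkbp11 (2.72 ± 0.26, adjusted p = 0.00024). From Ent-Pro to ENT 10 of these fell (20.2% of all genes), led by the glucosidase Mogs (-1.66) and Fkbp11 (-1.42), and 3 rose (18.5%), led by the thiol oxidases Ero1b (1.79) and Ero1a (1.29).

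The 2 ways of enriching secretory progenitors gave different levels of these genes. In DBZ against Rbpj Sec-Pro, 20 members were higher (9.34% of all genes) and 2 lower (7.08%), with a median of 0.47 against 0.06 over all genes. The 20 were 11 of 15 translocation genes, 8 of 16 chaperones and Kdelr1, from 1.35-fold for Ssr4 to 2.28-fold for Pdia6 (adjusted p = 0.0032). In Ssr2, a translocon-associated subunit, the arrays read 10.88 and 10.89 in Rbpj and 11.80 and 12.07 in DBZ Sec-Pro (1.05 ± 0.13, adjusted p = 0.0036). Degradation genes had 0 called in either direction (limma; 2 higher and 0 lower at an unadjusted p), with differences from -0.05 to 0.52.

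Both genes that were lower in DBZ Sec-Pro belong to the COPII coat. They were Sec23a (-1.13 ± 0.24, adjusted p = 0.018) and Sar1b (-1.03 ± 0.20, adjusted p = 0.014), whose values on every array stand above. The DBZ arrays lay below the Rbpj arrays in both. The enterocyte markers Apoa4 (-1.26, adjusted p = 0.011) and Fabp1 (-0.46, adjusted p = 0.037) were also lower in DBZ Sec-Pro, as was Creb3l3 (-1.59), and their part in the COPII difference was not tested.

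On the side of the higher genes, Bhlha15 (Mist1), a transcription factor of professional secretory cells, was higher in DBZ Sec-Pro (2.60 ± 0.36, adjusted p = 0.0049), and so was Atoh1 (1.23 ± 0.15, adjusted p = 0.0032). Of the 16 stress signalling genes, Bhlha15 among them, 6 were higher and 2 lower (9.34% and 7.08% of all genes). Most secretory markers were not called. Of 5 goblet markers 1 was higher and 1 lower. Of 4 Paneth markers 1 was higher, as was 1 of 6 enteroendocrine markers, with 0 lower in both lists. Plasma cells are rich in the same machinery. Of 6 plasma and B cell markers measured, 2 were higher, Jchain (1.94, adjusted p = 0.015) and Pou2af1 (1.60, adjusted p = 0.023). The mean of the 6 was 5.66 and 5.55 in Rbpj Sec-Pro, 5.99 and 6.59 in DBZ Sec-Pro, and from 5.09 to 5.85 in the other groups, with 1 of the 6 near background in DBZ Sec-Pro. Jchain was also high in Ent-Pro (8.09 and 7.60). DBZ replicate 2, with the higher mean of these markers, also had the higher level of most translocation genes and chaperones, and its mean of 6 stromal markers was 6.41 against 5.41 on DBZ replicate 1. Rbpj replicate 1 stood apart from Rbpj replicate 2 in the means of stem (8.70 against 10.23), tuft (6.64 against 8.65) and other leukocyte markers (9.33 against 7.82). The part of plasma cell RNA or of these other cells in the difference was not tested. For the alternative fits that follow, the share of all genes called was not counted, so their counts have no such share beside them. Without DBZ replicate 2 the count of higher members was 5, without Rbpj replicate 1 it was 9, and with the 2 groups fitted alone it was 1. Without either of these arrays 0 members were lower.

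**Figure D5:**
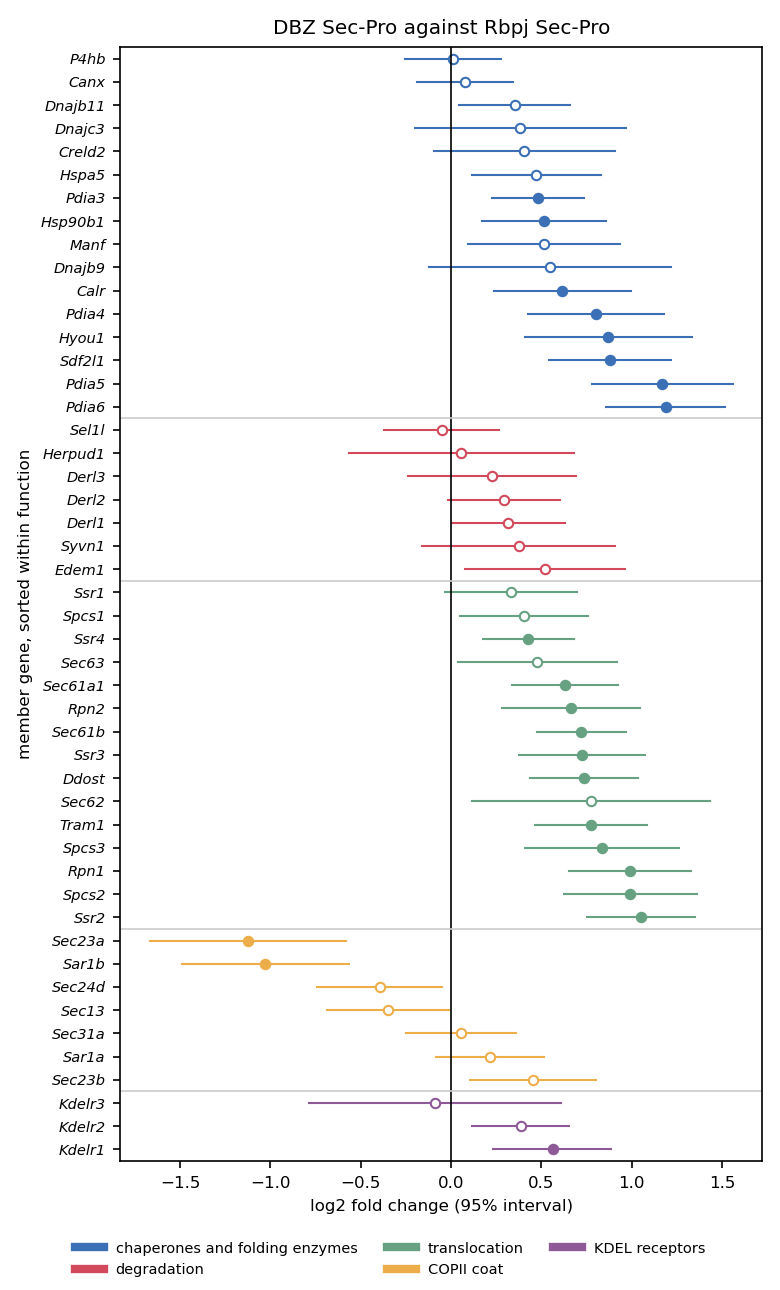
Log2 difference of DBZ Sec-Pro from Rbpj Sec-Pro with its 95% interval for each of the 48 measured members, sorted within function and filled where the adjusted p is below 0.05. All 15 translocation genes and all 16 chaperones lie above 0, 11 and 8 of them called, and the 2 members called below 0 are Sec23a and Sar1b of the COPII coat.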

How the data were processed

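The authors deposited log2 values of 22690 probe sets on 10 arrays. The submitters' processing notes name RMA and MAS5 without saying which made the values, so background correction and scaling are known only in name. Array medians lay between 6.83 and 6.98 and the values were used unscaled. Control probe sets and those with several gene symbols or none were left out. A linear model with 5 group means was fitted to all 10 arrays in limma 3.58.1 (R 4.3.3; lmFit, eBayes, 5 residual and 3.75 prior degrees of freedom), tested on simulated data first, and p was adjusted over 12393 genes. A probe set was near background when every array of a group lay under the highest absent bacterial control plus 1, which was so for 0 members. The number of arrays limits the precision.

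The members, lists and tests were chosen with earlier results of these data known. Values on every array are given for the 3 members of each function with the largest change, their paralogs and members called against their function; Hspa5, Rpn1 and Ssr2 were added after their values were seen. Related lists name the larger called changes. Proteins of the members were not analysed here. Promoters of Derl1, Hyou1, Kdelr2, Manf, Sec61a1, Spcs3, Ssr2 and Tram1 were not used here.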

Additional observations from a re-analysis of the deposited data

Results flagged for a closer look

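For 22 members the 2 ways of enriching secretory progenitors differed past the threshold, tested as the difference itself between DBZ and Rbpj Sec-Pro (limma). Lower in DBZ Sec-Pro were Sec23a (log2 difference -1.13) and Sar1b (-1.03). Higher were the chaperones Pdia6 (1.19), Pdia5 (1.17), Sdf2l1 (0.88), Hyou1 (0.87), Pdia4 (0.80), Calr (0.62), Hsp90b1 (0.52) and Pdia3 (0.48). Higher among translocation genes were Ssr2 (1.05), Spcs2 (0.99), Rpn1 (0.99), Spcs3 (0.84), Tram1 (0.77), Ddost (0.74), Ssr3 (0.72), Sec61b (0.72), Rpn2 (0.66), Sec61a1 (0.63) and Ssr4 (0.43). Kdelr1 (0.56) was the KDEL receptor among them. Groups of 2 arrays are too small to look for an outlying array.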

How the results depend on the processing

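Of 185 called changes of members, 81 stayed past the threshold in the same direction under every one of the alternatives run. With the replicate block the counts of members higher and lower were 27 and 0 (Sec-Pro against Ent-Pro), 41 and 0 (Sec-Pro against ISC), and 26 and 1 (Ent-Pro against ISC). They were 13 and 15 (ENT against Ent-Pro), 29 and 7 (Sec-Pro against ENT), and 17 and 2 (DBZ against Rbpj Sec-Pro). All lay within 1.5 times of the counts given. Deviations of same-numbered arrays correlated with r from -0.192 to 0.174, so they shared little deviation. Whether the samples were paired by animal or day cannot be told from this. Leaving out 1 array at a time gave, in the same order, 8 to 35 higher and 0 to 0 lower, 38 to 41 and 0 to 0, 18 to 26 and 0 to 1, 9 to 14 and 9 to 15, 26 to 30 and 3 to 7, and 5 to 20 and 0 to 3. In Ent-Pro against ISC the count lower was 2 after cyclic loess and 0 with the mean of all probe sets. With the dimmest probe set 1 member fell below Ent-Pro in Sec-Pro and 1 below ISC. With only the groups compared in the fit, 4 members were lower in Sec-Pro than in ENT, and DBZ against Rbpj Sec-Pro had 1 higher and 0 lower, with fewer samples to estimate the spread. Rbpj Sec-Pro alone had 12 members higher and 1 lower against Ent-Pro and 2 lower against ISC. With the 4 Sec-Pro arrays as 1 group, 11 were higher than in Ent-Pro and 3 lower than in ENT. The share of all genes called in each of these alternative fits was not counted, and the cause of these shifts was not tested.

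Signs turned mainly with the dimmest probe set. It gave a median of 0.082 for ENT against Ent-Pro. In Sec-Pro against Ent-Pro it gave -0.074 for Pdia4 and -0.28 for Ssr4, and in Ent-Pro against ISC -0.23 for Pdia6. In ENT against Ent-Pro it gave 0.10 for Pdia4, 0.30 for Pdia6, -0.88 for Derl2 and 0.96 for Sec61a1, and the mean of probe sets gave -0.24 for Derl2. In Sec-Pro against ENT it gave -0.18 for Pdia4, -0.026 for Hyou1, -0.22 for Sec63, -0.28 for Ssr4, -0.001 for Sar1a and 0.00 for Sec61a1, and Rbpj Sec-Pro alone gave 0.00 for Sar1b. In DBZ against Rbpj Sec-Pro it gave -0.36 for Pdia6, -0.51 for Hyou1, -0.36 for Ssr4 and -0.17 for Tram1. Centring the arrays moved the median of all genes in Sec-Pro against ENT from -0.11 to -0.22, and cyclic loess that in Sec-Pro against ISC from -0.11 to -0.01, with members' medians of 0.53 and 1.13.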
